A study of Mus musculus with 4 samples.

Results

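TNF receptor-associated factors (TRAFs) are the adaptors through which many receptors of the tumour necrosis factor (TNF) family signal, and the expression of 6 TRAF adaptors (Traf1 to Traf6) and 4 TNF-type receptors (Eda2r, Tnfrsf1a, Tnfrsf1b and Tnfrsf21) was examined in the cerebellum of mice that lack Dicer in astroglia. These 10 genes were taken from the array files by their gene names, out of 28632 names on the array, and they are read by 17 probes of 60 bases on 35 of 43379 gene spots. They were chosen with the array results in view, Traf1 and Eda2r having been seen to differ between the genotypes. Their differences are therefore described, and no p-value is given for any of them.

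The Dicer mutants carried mGfap-Cre with both alleles of Dicer floxed. Their control littermates carried mGfap-Cre with a wild-type and a floxed allele, so that both genotypes had the Cre transgene and at least 1 floxed allele. Mice were of mixed background and 30 postnatal days old, and the Cre line was mGfap-cre 73.12, in which a mouse Gfap promoter drives the recombinase. Whole-cerebellum RNA of 4 littermate pairs was hybridised to 4 2-colour Agilent arrays, each with 1 mutant and its control littermate, from 500 ng of total RNA per animal. The mutant RNA was labelled with Cy5 in pairs 1 and 3 and with Cy3 in pairs 2 and 4. Whole tissue holds neurons, oligodendrocytes and vessels beside astroglia, and in such samples fewer cells of a type and less RNA per cell cannot be told apart.

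When a TNF ligand engages its receptor, TRAF proteins gather at the receptor's cytoplasmic tail, directly or through the death domain adaptor TRADD, and recruit ubiquitin ligases and kinases that switch on NF-kB and the JNK and p38 kinases. Receptors with a death domain, such as those encoded by Tnfrsf1a and Tnfrsf21, can also start cell death. In the brain, TNF and its receptors are known for their roles in glial activation, synaptic scaling and neuronal death. Dicer cuts precursor hairpins into mature microRNAs, and the best known link between microRNAs and this family is the repression of Traf6 by miR-146.

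The first 30 bases of the 60-base probes behind the main values are printed here, because each reading belongs to 1 short stretch of a transcript and the probes of a gene did not always give the same answer. Positions are those of the array design on mm9, and whether a stretch is coding or untranslated was not examined here. The Traf1 probe A_51_P343833 matches chr2:34798882-34798941 on the minus strand. The 3 Eda2r probes lie on the minus strand of chromosome X, A_52_P354844 at chrX:94529458-94529517, A_51_P161323 at chrX:94531320-94531379 and A_52_P207163 at chrX:94533873-94533932. The Tnfrsf1a probe A_52_P192426 lies at chr6:125312376-125312435 on the plus strand. Of the Tnfrsf1b probes, both on the minus strand, A_52_P228621 lies at chr4:144804304-144804363, and the 60 bases of A_51_P278282 span 574 genomic bases at chr4:144812866-144813439, so this probe crosses a splice junction.
Traf1 A_51_P343833: ggtcagacattaatgtgaatttaacctgcc
Eda2r A_52_P354844: acttatatcactggaatattgaaaggttgt
Eda2r A_51_P161323: aatttggaagcaagcttaccttacattgta
Eda2r A_52_P207163: atcttgactctactagcaactagtcatatt
Tnfrsf1a A_52_P192426: agcaatctttgtatcaattatatcacacta
Tnfrsf1b A_51_P278282: ctggtgaactgcttcatcctggtgcagagg
Tnfrsf1b A_52_P228621: gcaattgcactgtgtgctggacagaattcc

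The mature miR-146 sequences are shown because Traf6 is their best known target in this family. They come from RefSeq on GRCm38.p6, at chr11:43374435-43374456 (minus strand) for miR-146a-5p and chr19:46342790-46342811 (plus strand) for miR-146b-5p. Capitals mark the seed, bases 2 to 8, which is the same in both. MicroRNAs themselves were not measured on these arrays.
mmu-miR-146a-5p: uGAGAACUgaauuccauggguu
mmu-miR-146b-5p: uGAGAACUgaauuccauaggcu

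Probes called well above background numbered 26398 to 28907 per array for mutants and 26291 to 27718 for controls, with 0 saturated gene spots. All 12 granule neuron and all 13 Purkinje neuron marker genes passed the filter on dim probes. So did all 12 astroglia, 16 microglia, 11 endothelial and 12 oligodendrocyte markers. No other tissue was compared, so detection of these markers does not by itself identify the tissue. Dicer1, the targeted gene, had a log2 ratio of 0.04 ± 0.22 (mutant over control, SD, n = 4 pairs, limma adjusted p = 0.947) at its brightest probe and -0.06 ± 0.18 at the other. Neither probe showed the deletion in whole-tissue RNA, and whether they lie in the floxed part was not examined here. Over the 18025 genes tested, the median log2 ratio was 0.00, the median absolute log2 ratio 0.0613 and the median SD over pairs 0.16.

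All 10 genes had at least 1 probe above background, and 13 of the 17 probes passed the filter on dim probes. The levels of mutants and controls did not overlap in 3 of the 10, 2 with all mutants higher and 1 with all mutants lower. Over all genes tested the share without overlap was 3.99% (2.2% higher and 1.79% lower in mutants), and nothing is read from the members' count, since the same contrast chose them. Traf1 was about 3-fold lower in Dicer mutants, whereas Eda2r and Tnfrsf1a were higher, and the other 7 genes had mean log2 ratios between -0.06 and 0.14. Traf1 was among the 80 genes called lower over the whole array (0.444% of genes tested, limma adjusted p under 0.05) and Eda2r among the 106 called higher (0.588%), in all 2 of 10 genes against 1.03% of the 18025. Leaving out 1 pair moved those counts to between 13 and 127 lower and between 44 and 215 higher. Eda2r entered the tested genes only through the mutants, its probe being above background in 4 of 4 mutants and 0 of 4 controls. Since this contrast chose the genes, nothing is read from the count of members called.

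Levels below are normalised intensities on a linear scale, which include an offset of 50 and can be compared between animals for a probe but not between probes. Traf1 encodes an adaptor without the RING finger of the other TRAFs, is itself switched on by NF-kB, and is best known from lymphocytes, where it joins TRAF2 and the cIAP proteins. Its level was 236.1, 280.1, 358.1 and 219.4 in the mutants of pairs 1 to 4, against 834.2, 845.6, 784.7 and 832.6 in their control littermates. The highest mutant lay far below the lowest control, and the controls were tightly grouped (273.4 ± 62.0 in mutants and 824.3 ± 27.0 in controls, SD, n = 4 each). The log2 ratios of the 4 pairs were -1.82, -1.59, -1.13 and -1.92, a mean of -1.62 ± 0.35, which put controls 3.07-fold above mutants. All 4 pairs went the same way under both dye orders, and only 1 of the 18025 genes tested had a lower mean ratio. That rank is a description only, since Traf1 was chosen with this contrast in view. The single Traf1 probe was above background in both genotypes on all 4 arrays.

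**Figure D1:**
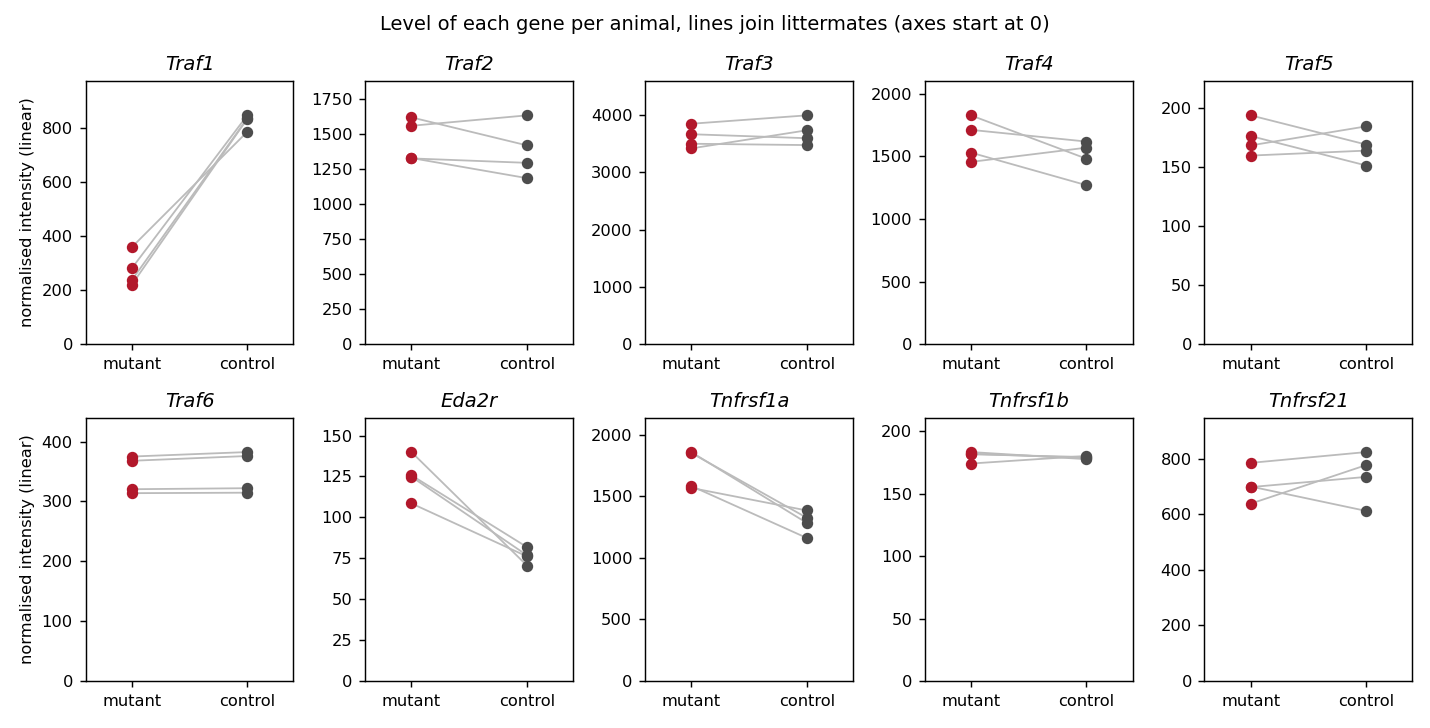
Normalised intensity (linear scale, vertical axes from 0) of the 10 genes in each Dicer mutant (red, left) and control (grey, right), 1 point per animal with lines joining littermates. The mutants lay between 219.4 and 358.1 for Traf1, all below the controls, and between 1567.2 and 1858.4 for Tnfrsf1a, all above the controls.

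Traf2 encodes the adaptor that TNF receptor 2 binds directly and that TNF receptor 1 reaches through TRADD. Its level was 1558.6, 1618.6, 1325.7 and 1328.4 in mutants, against 1632.9, 1418.6, 1294.1 and 1184.9 in controls. The groups overlapped, and the log2 ratio of 0.08 ± 0.12 was smaller than its spread over pairs. Both pairs with the mutant in Cy3 gave higher Traf2 ratios (0.19 and 0.16) than both pairs with the mutant in Cy5 (-0.07 and 0.03), a split along the dye order.

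Traf3 encodes a brake on the non-canonical NF-kB pathway, where it keeps the kinase NIK low. It was at 3497.7, 3663.7, 3846.6 and 3416.2 in mutants, against 3474.2, 3594.1, 3992.8 and 3732.0 in controls. The ratio was -0.04 ± 0.07, with 2 pairs on each side of 0 and overlapping groups.

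Traf5, a close relative of Traf2 that serves CD40 and the lymphotoxin beta receptor, was at 159.5, 176.0, 193.5 and 168.1 in mutants, against 163.7, 151.1, 168.8 and 184.2 in controls. The pairs again disagreed in direction, 2 higher and 2 lower, for a log2 ratio of 0.06 ± 0.17. These levels are low, where the offset draws ratios towards 0. In the scanner software's own processed signals, without an offset, the ratio was 0.10 ± 0.31.

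Traf6, a ubiquitin ligase that carries signals from CD40, Toll-like and interleukin-1 receptors, had levels of 367.9, 375.0, 313.8 and 320.4 in mutants, against 375.9, 382.5, 314.6 and 322.1 in controls. Pairs 1 and 2 were brighter than pairs 3 and 4 in both genotypes, so the animals grouped by array and not by genotype. The pair ratios were -0.03, -0.03, -0.00 and -0.01, a mean of -0.02 ± 0.01, with the smallest SD of the 10 genes. The other Traf6 probe was above background on none of the arrays (ratio -0.03 ± 0.13).

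Traf4 encodes the family member with the least tie to TNF receptors, known from neural tube and airway development in the mouse. Its brighter probe read 1455.1, 1826.5, 1710.9 and 1529.1 in mutants, against 1568.8, 1480.3, 1617.4 and 1269.0 in controls. The mutant was higher in 3 pairs and lower in pair 1, at a log2 ratio of 0.14 ± 0.19, and the groups overlapped. The dimmer probe read 148.6, 172.9, 199.5 and 175.0 in mutants and 141.4, 149.9, 169.3 and 155.9 in controls. Here all 4 pairs were higher in the mutant, by 0.17 ± 0.07, while the groups still overlapped. The offset draws the ratios of so dim a probe towards 0, and the processed signals gave 0.28 ± 0.10. The brighter probe also split by dye order, at -0.11 and 0.08 with the mutant in Cy5 and 0.30 and 0.27 with the mutant in Cy3.

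**Figure D2:**
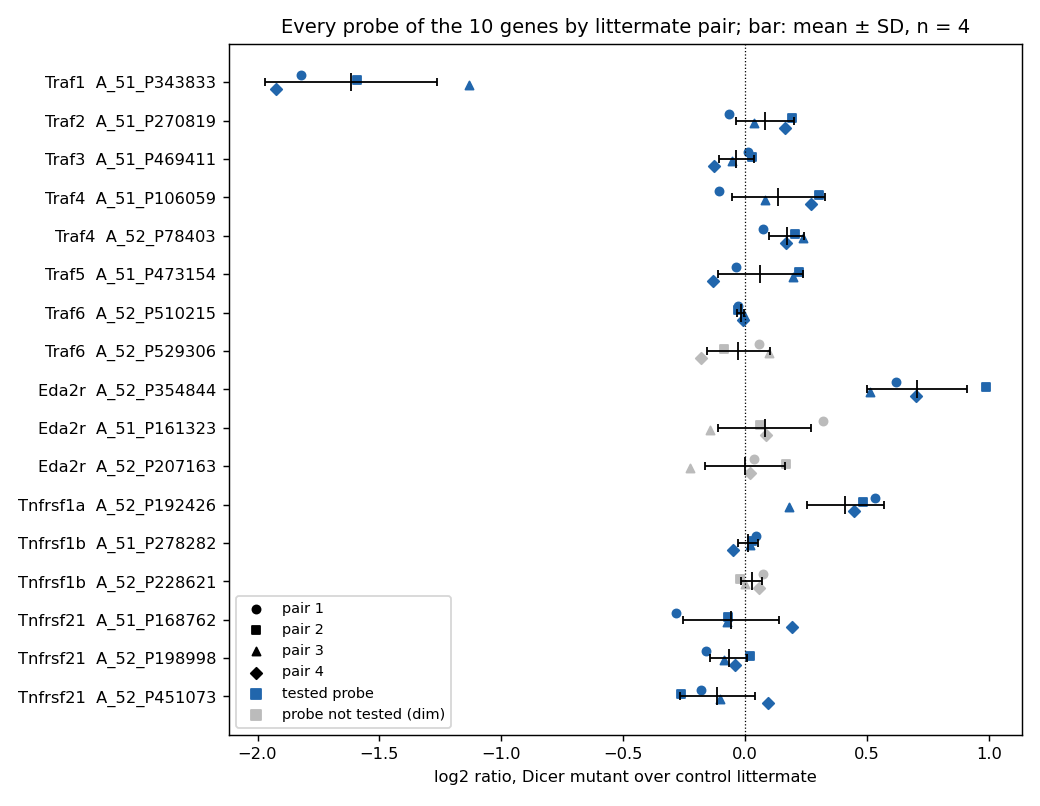
Log2 ratio of mutant over control littermate for each of the 17 probes (horizontal axis), with a symbol for each of the 4 pairs and a bar for the mean ± SD. Grey symbols are the 4 probes that were too dim to be tested. Traf1 stood between -1.92 and -1.13, and the pairs of the brightest Eda2r probe between 0.51 and 0.99, while the other 2 Eda2r probes lay around 0.

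Eda2r (also called XEDAR) encodes the receptor of the A2 form of ectodysplasin, signals through TRAF3 and TRAF6, and is a known transcriptional target of p53. Its probe A_52_P354844 read 125.7, 139.9, 108.5 and 124.8 in mutants, against 81.8, 70.5, 76.1 and 76.8 in controls. The lowest mutant was above the highest control, and the means were 124.7 ± 12.8 in mutants and 76.3 ± 4.64 in controls (SD, n = 4 each). It was called well above background in 4 of 4 mutants and in 0 of 4 controls. The controls thus give only an upper limit. With the mutants' mean level set against that limit, Eda2r was on average 1.55-fold higher in these normalised values (0.63 on the log2 scale). The limit was the dimmest signal well above background in the control channel (62.1 to 86.1 over the arrays), or the probe's own signal where that was higher, as in pair 4. There the control read 76.8, above the dimmest signal of 62.1, and still was not called above background. A probe above the dimmest signal can thus go uncalled, and 1.55-fold is not a firm lower bound. It also holds for this processing only, since the mean log2 ratio was 0.56 with outlier spots removed after the background fit. The measured log2 ratios were 0.62, 0.99, 0.51 and 0.70, a mean of 0.71 ± 0.20. They split by dye order, at 0.62 and 0.51 with the mutant in Cy5 and 0.99 and 0.70 with the mutant in Cy3. All 4 pairs were higher in the mutant under both dye orders, and the part of dye in the size was not tested.

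The size of the Eda2r difference depended on how the background was handled. In the scanner software's own processed signals, without an offset, the same probe read 61.0, 93.0, 50.5 and 69.7 in mutants, against 10.8, 12.2, 9.40 and 11.9 in controls. The groups were again apart, and the log2 ratio was 2.60 ± 0.22. The split by dye order remained, at 2.50 and 2.42 with the mutant in Cy5 and 2.93 and 2.55 with the mutant in Cy3. Traf1 moved less, to -1.94 ± 0.44, with processed signals of 157.0, 226.1, 339.2 and 177.8 in mutants and 751.9, 832.4, 854.2 and 861.3 in controls. Without replicate 1, without replicate 3, and with outlier spots removed after the background fit, Eda2r was not among the called genes.

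The other Eda2r probes did not carry the difference. A_51_P161323 read 74.8, 68.9, 64.7 and 64.9 in mutants, against 60.0, 66.1, 71.4 and 61.2 in controls, a log2 ratio of 0.08 ± 0.19. A_52_P207163 read 65.4, 67.3, 62.0 and 78.8 in mutants, against 63.9, 60.0, 72.4 and 77.9 in controls, a log2 ratio of -0.00 ± 0.16. Both were above background in neither channel of any array, so they neither show nor bound a difference, and the reading of Eda2r rests on the 1 probe. Of the 3 probes, only the undetected A_51_P161323 is listed under a RefSeq transcript of Eda2r. The probe that carried the difference, A_52_P354844, is listed under another sequence, so the reading belongs to that stretch.

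Tnfrsf1a encodes TNF receptor 1, the broadly expressed death domain receptor for TNF. Its level was 1858.4, 1851.5, 1567.2 and 1583.1 in mutants, against 1283.3, 1325.1, 1384.2 and 1161.0 in controls. Every mutant was above every control (1715 ± 162 in mutants and 1288.4 ± 94.5 in controls, SD, n = 4 each). The log2 ratios were 0.53, 0.48, 0.18 and 0.45, a mean of 0.41 ± 0.16 or 1.33-fold, and Tnfrsf1a was not among the genes called over the array. Of the genes tested, 2.50% had a larger absolute ratio. This share only describes the size, and nothing is read from it, since the genes were chosen with the contrast in view.

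The Tnfrsf1a probe is printed 10 times on each array, which gives the noise between spots, but not that of labelling or hybridisation. All 40 spots were well above background in both channels. The SD over the 10 spots of an array was 0.0416, 0.0603, 0.0662 and 0.0613, against 0.16 between the 4 pairs. The spots ranged between 0.48 and 0.62 in pair 1, 0.37 and 0.56 in pair 2, 0.10 and 0.34 in pair 3, and 0.36 and 0.57 in pair 4. Every spot of every array therefore read higher in the mutant, and no spot of pair 3 reached the lowest spot of the other pairs. The 10 spots share the same 2 animals, labelling and hybridisation and are 1 replicate, so other technical error between arrays is not measured by them.

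Tnfrsf1b encodes TNF receptor 2, which lacks a death domain, binds TRAF2 and in brain is best known from microglia and endothelium. Its junction-spanning probe read 183.4, 182.1, 181.6 and 174.2 in mutants, against 177.7, 178.7, 179.4 and 180.3 in controls. Animals of both genotypes fell into the same narrow range, with a log2 ratio of 0.01 ± 0.04. The other probe, also printed 10 times, was well above background in 18 of 40 mutant and 13 of 40 control spots and was too dim to be tested. Its ratio, a mean of 10 spots on each array, was 0.03 ± 0.04 between pairs, and single spots of an array had an SD of 0.0836 to 0.116. Thus both probes of Tnfrsf1b gave ratios near 0, at levels close to the dim end of the array where the offset draws ratios towards 0.

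**Figure D3:**
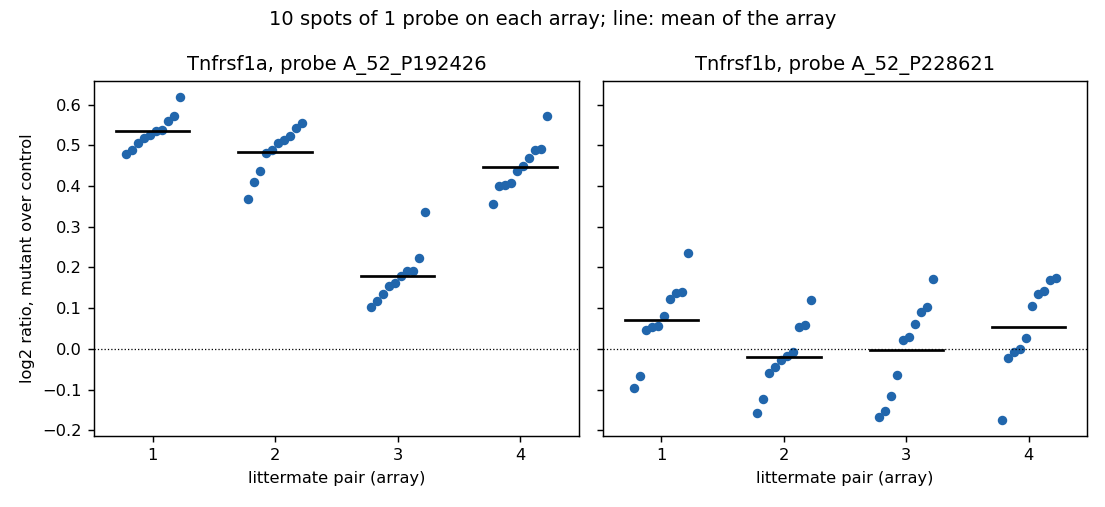
Log2 ratio of mutant over control (vertical axis) of 10 spots of the same probe on each of the 4 arrays (horizontal axis), with the array mean as a line, for Tnfrsf1a (left) and the dim Tnfrsf1b probe (right). All Tnfrsf1a spots lay above 0, those of pair 3 lowest, and the Tnfrsf1b spots lay on both sides of 0.

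Tnfrsf21, which encodes the death domain receptor DR6 known for its part in axon pruning and oligodendrocyte maturation in mice, was read by 3 probes. The brightest gave 638.1, 785.0, 697.8 and 699.9 in mutants, against 777.1, 823.9, 734.5 and 611.9 in controls, a log2 ratio of -0.06 ± 0.20. Its ratio was negative in 3 pairs and positive in pair 4, and the groups overlapped. This probe split narrowly by dye order, at -0.284 and -0.0740 with the mutant in Cy5 and -0.0697 and 0.194 with the mutant in Cy3. The other probes gave -0.07 ± 0.08 and -0.11 ± 0.15, so all 3 means were slightly below 0 and none was further from 0 than its SD. The dimmest of them, A_52_P198998 (-0.07), read between 94.4 and 133.6, where the offset draws ratios towards 0. Its processed signals, without an offset, gave -0.24 ± 0.15, which was further from 0 than its SD.

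In all of Traf1, Eda2r and Tnfrsf1a the difference was smallest in pair 3. The same held for 82 of the 186 genes called over the array (44.1%), against 34, 41 and 29 genes with the smallest difference in pairs 1, 2 and 4. The median absolute log2 ratio of the called genes was 0.70 in pair 3, against 0.81, 0.83 and 0.84 in the other pairs, whereas over all genes tested it was 0.13 in pair 3 and 0.11 to 0.14 in the others. The order of the other pairs differed between the 3 genes, with the largest difference in pair 4 for Traf1, pair 2 for Eda2r and pair 1 for Tnfrsf1a.

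The genes whose ratios over the 4 pairs came closest to those of Traf1 were Npy, which encodes neuropeptide Y, Dhrs2, a short-chain dehydrogenase, and Rida, an imine deaminase. Closeness was taken as the root mean square difference of the log2 ratios, which was 0.185 for Npy, 0.298 for Dhrs2 and 0.396 for Rida. Npy stood at -2.05, -1.51, -1.17 and -1.65, smallest in pair 3 like Traf1 but largest in pair 1. Dhrs2 was smallest in pair 2 (-1.49), and the 4 ratios of Rida were nearly even (-1.30 ± 0.11). Closest to Eda2r were Mobkl2b, a MOB family kinase activator, at 0.1001, the cyclophilin gene Ppic at 0.102 and the glycolytic regulator Pfkfb3 at 0.112. The controls gave only an upper limit for Eda2r, and its ratio of 2.60 in the processed signals was far from these genes, so this closeness holds for the normalised values with their offset only. The means of the 3 were 0.67 ± 0.23, 0.78 ± 0.19 and 0.70 ± 0.33, and each was smallest in pair 3. With 4 points a gene, such likeness is a description only.

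Around the 10 genes, lists of the wider pathway held 150 further genes, of which 113 were tested. Of these, 3 rose in Dicer mutants (Cxcl10, Vcam1 and Psrc1) and 0 fell, which is 2.65% against 1.03% of all genes tested, and their median log2 ratio was 0.03 against 0.00. Cxcl10 and Psrc1 entered the test through the mutants, since 2 of the 4 controls were too dim for each, and 1 gene was called where both channels had to be above background. The ligands were mostly out of reach, since 4 of 17 on the array were tested and 9 were above background on none of the arrays, among them Tnf, Lta, Tnfsf10 and Tnfsf11. None of the 4 passed (median 0.06, and 0 at an unadjusted limma p under 0.05). The ligands with the smallest p were Eda, which makes ectodysplasin, at 0.13 ± 0.06 (limma adjusted p = 0.590) and Ltb, lymphotoxin beta, at 0.07 ± 0.10 (adjusted p = 0.846). Of 24 other TNF receptors, 15 were tested and none passed by limma (median 0.05, 1 at an unadjusted p under 0.05), with Tnfrsf19 at 0.28 ± 0.18 (adjusted p = 0.369) and Tnfrsf10b, a TRAIL receptor, at 0.12 ± 0.20 (adjusted p = 0.646).

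Of 39 tested partners of the TRAFs, none passed by limma (median -0.00, 3 at an unadjusted p under 0.05). The smallest p belonged to Tnfaip3, the A20 brake on NF-kB, at 0.22 ± 0.14 (adjusted p = 0.367) and Tab2, a subunit of the TAK1 kinase complex, at 0.19 ± 0.06 (adjusted p = 0.383). Of 18 tested kinases and factors of NF-kB and JNK signalling, none passed either (median 0.03, 1 at an unadjusted limma p under 0.05). Relb, the subunit of non-canonical NF-kB, was at 0.19 ± 0.09 (adjusted p = 0.378) and the JNK2 gene Mapk9 at -0.13 ± 0.14 (adjusted p = 0.717).

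Among known target genes, 2 of 16 tested genes of NF-kB rose and 0 fell (median 0.10, 5 at an unadjusted limma p under 0.05). Cxcl10, a chemokine also induced by interferons, rose by 2.57 ± 0.38 on the log2 scale (limma adjusted p = 0.00529). Only 2 of the 4 controls were bright enough to be above background, so the size is uncertain, and it was between 1.93 and 4.66 over 14 other settings, the highest with the processed signals. Vcam1, the vascular and glial adhesion molecule, rose by 0.89 ± 0.16 (adjusted p = 0.00757), and all 4 pairs of both genes were higher. Of 28 tested p53 targets, a list that does not hold Eda2r itself, 1 rose and 0 fell (median 0.07, 4 at an unadjusted limma p under 0.05). This was Psrc1, a microtubule-binding protein gene, at 1.38 ± 0.47 (adjusted p = 0.00983) and likewise above background in 2 of the 4 controls, with a ratio between 1.00 and 2.82 over 14 other settings. The stress-response gene Trp53inp1 stood at 0.54 ± 0.17 and did not pass (adjusted p = 0.0533, between 0.0230 and 0.294 over 15 other settings, of which 5 passed it).

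Each of these 3 calls was lost in some setting. Requiring both channels above background on all arrays left Cxcl10 and Psrc1 untested and 1 pathway gene called, Vcam1. Vcam1 did not pass without replicate 1 (adjusted p = 0.0529, and between 0.00245 and 0.0529 over 15 settings). Cxcl10 and Psrc1 also did not pass with outlier spots removed after the background fit (adjusted p = 0.0580 and 0.0574, and between 0.000137 and 0.0580 for Cxcl10 and between 0.00198 and 0.0574 for Psrc1 over 14 settings).

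**Figure D4:**
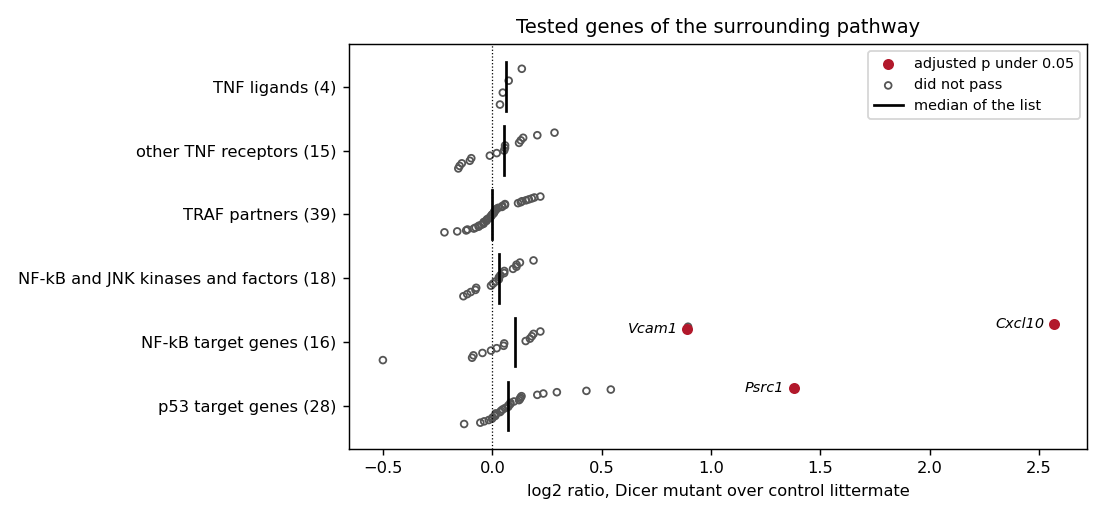
Log2 ratio of mutant over control (horizontal axis) of each tested gene in 6 pathway lists, with the number tested in brackets, the list's median as a line and the genes with a limma adjusted p under 0.05 filled in red. The named Cxcl10, Vcam1 and Psrc1 lay between 0.89 and 2.57, and the medians of all 6 lists lay between -0.00 and 0.10. The open circle behind Vcam1 is Ccl5 (0.89).

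Markers of the cells that could carry these transcripts were read beside them. Traf1 is best known from lymphocytes, and of 14 lymphocyte markers 4 were tested, with a summed level of 530 to 645 in mutants against 509 to 575 in controls (median log2 ratio 0.01, none passed by limma, 0 at an unadjusted p under 0.05). The T cell markers Cd3g, Cd8a and Cd8b1 were above background on none of the arrays in either genotype. Cd3e, also a T cell marker, was above background on all 4 arrays in both genotypes. Cd2, Cd3d, Cd4 and Lck were so on at least 1 array, but on at most 2 in a genotype. Astroglia markers moved with the genotype, summing to 258792 to 305192 in mutants against 337174 to 377987 in controls. The 12 tested had a median log2 ratio of -0.40, with 4 above 0 and 11 at an unadjusted limma p under 0.05. Of them, 2 rose, Gfap (1.47 ± 0.35, limma adjusted p = 0.0137) and Aldh1l1 (1.504 ± 0.234, adjusted p = 0.00529). The water channel gene Aqp4 (-0.54 ± 0.26, adjusted p = 0.0262), S100b (-0.56 ± 0.09, adjusted p = 0.0231) and the glutamate transporter gene Slc1a2 (-0.57 ± 0.11, adjusted p = 0.0271) fell. The last 3 did not pass without replicate 1 (adjusted p = 0.182 for Aqp4, 0.185 for S100b and 0.181 for Slc1a2) or without replicate 3 (0.185, 0.127 and 0.165), nor with the processed signals, the value table or the channels fitted separately. Over 15 settings the adjusted p was between 0.0170 and 0.185 for Aqp4, 0.00860 and 0.185 for S100b, and 0.00949 and 0.183 for Slc1a2. Summed astroglia markers were lower in the mutant of every pair. Summed endothelial markers were lower in every pair too (log2 ratio -0.04, -0.02, -0.27 and -0.02 in pairs 1 to 4). Traf1 was lower in every pair, while Tnfrsf1a and Eda2r were higher in every pair. The part of astroglia or endothelium in these values was not tested.

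For the receptors, microglia and endothelium are the other cells to consider. The 16 microglia markers summed to 20680, 23461, 17850 and 17548 in mutants of pairs 1 to 4, against 19668, 18335, 17384 and 18504 in controls, and none passed by limma (1 at an unadjusted p under 0.05). The log2 ratio of these sums was 0.07, 0.36, 0.04 and -0.08 in pairs 1 to 4, so the microglia sum was higher in the mutant in 3 pairs and lower in pair 4. Tnfrsf1a was higher in all 4 pairs (0.53, 0.48, 0.18 and 0.45), pair 4 included. The 11 endothelial markers summed to 15244 to 19454 in mutants and 15458 to 20391 in controls, and again none passed (0 at an unadjusted p under 0.05). Oligodendrocyte markers summed to 207657 to 261586 in mutants and 250278 to 305484 in controls (median log2 ratio -0.25, 0 of 12 passed by limma, 5 at an unadjusted p under 0.05). Choroid plexus markers, a sign of how the tissue was cut, summed to 23347, 16232, 27944 and 20297 in mutants against 21664, 25636, 19501 and 13539 in controls, with pair 2 opposite to the others. Of the 12 granule and 13 Purkinje neuron markers, 0 passed by limma and 0 had an unadjusted p under 0.05, with medians of 0.01 and -0.01. The part of these cell types in the values of the 10 genes was not tested.

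**Figure D5:**
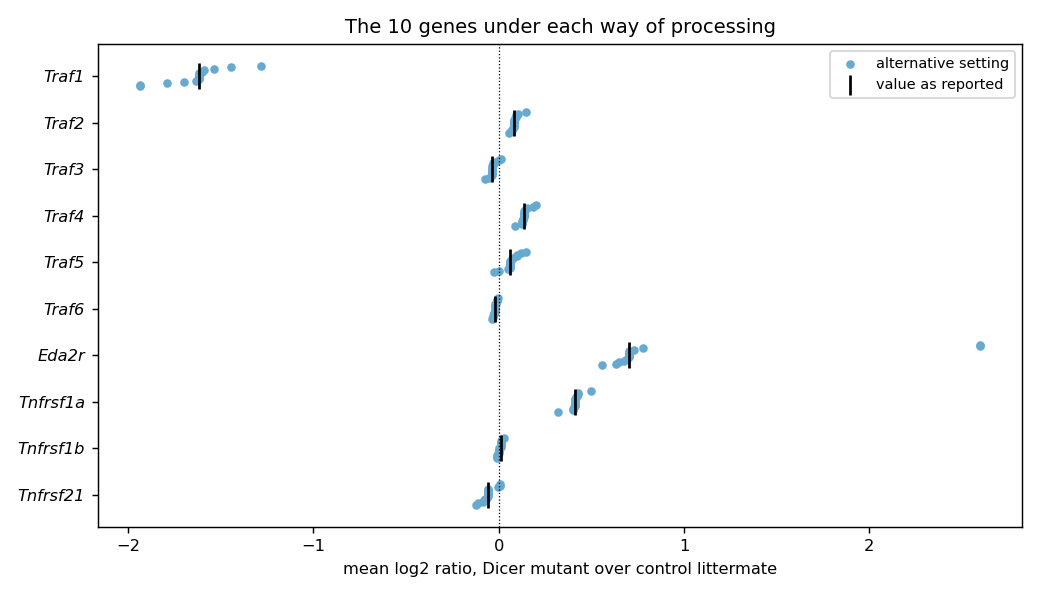
Mean log2 ratio of mutant over control (horizontal axis) of each of the 10 genes under the alternative ways of processing (blue points), with the value reported here as a black line. Traf1 stayed between -1.94 and -1.28 and Tnfrsf1a between 0.32 and 0.50, while Eda2r reached 2.60 with the scanner software's processed signals.

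Across 15 other ways of processing, Traf1 had a mean log2 ratio between -1.94 and -1.28 and was among the called genes in all 15. Tnfrsf1a lay between 0.32 and 0.50 and was called in 0 of 15. All settings draw on the same 4 arrays and the contrast that chose these genes, so nothing is read from these counts of calls. Traf2, Traf4 and Traf6 kept their sign in all 15, at 0.06 to 0.15, 0.09 to 0.20 and -0.04 to -0.01. The sign of the mean changed in 2 settings for Traf3, 1 for Traf5, 4 for Tnfrsf1b and 2 for Tnfrsf21, all genes whose pairs disagreed in direction.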

How the data were processed

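Each array file holds, per the file headers, spot intensity values of both channels as read by the authors with Agilent Feature Extraction 10.5.1.1, with background, outlier and above-background flags (other columns) and a deposited log10 ratio. The deposited value table holds the same log10 ratios, turned to mutant over control. Here, mean spot intensity was corrected with normexp (offset 50) against the median local background, leaving outlier spots out of the fit, and normalised by loess within arrays. Channel levels were then scaled between arrays by quantiles of mean brightness (Aquantile). Spots of a probe were averaged, and the brightest tested probe stood for a gene. A probe was tested if at least 50% of its spots were well above background in 1 genotype on all 4 arrays. Of 41174 probes, 24844 were named through RefSeq accessions and 16330 as the array names them. limma 3.58.1 in R 4.3.3 fitted genotype and dye over the 4 arrays (2 residual degrees of freedom), with Benjamini-Hochberg adjustment over 18025 genes. Members and gene lists were chosen with earlier results of these data known. The text names all 10 members with every probe, called list genes, the 2 smallest p per pathway list and the 3 genes most like Traf1 and Eda2r. The array pairs the littermates. Precision is limited by 4 arrays. Alternatives changed background, flags, signal, normalisation, filter, probe rule, dye term, pairing and replicates.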

Additional observations from a re-analysis of the deposited data

How the results depend on the processing

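Counts over all genes depended on the pairs kept. With replicates 1, 2, 3 and 4 left out in turn, 44, 140, 60 and 215 genes were called higher (106 with all) and 13, 127, 31 and 121 lower (80 with all). Removing outlier spots after the background fit gave 50 higher and 32 lower, and the processed signals and the value table each gave 53 lower. Pathway genes called (3) numbered 1 with flags after the fit or both channels required above background, 5 with the median spot signal, no filter, no dye term or separate channels, and 2 to 5 without 1 replicate. Cell type genes called (5) numbered 2 with processed signals, the value table or separate channels, 3 with flags after the fit or median centring, and 2 to 7 without 1 replicate. The fit without the pairing of littermates as a block (separate channels) called 96 higher and 61 lower and changed the call of no member. Of 149 values of the 10 genes under other settings, 3 moved by more than the SD between pairs, Traf6 with median centring (-0.04) and Eda2r with the processed signals and the value table (2.60 in both). Eda2r was left out by the filter on both channels and called in 11 of 14 settings. Aqp4 and Slc1a2 passed in 7 and S100b in 10 of 15. Why these values moved was not tested. Dim signal limits Eda2r, Tnfrsf1b, Traf5, the dimmer Traf4 probe, the dimmest Tnfrsf21 probe and the second Traf6 probe.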
